A study of Mus musculus with 9 samples.

Results

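Genes of apolipoproteins and of lipoprotein assembly were followed in the liver of pair-fed and alcohol-fed mice. The 10 genes Apoa1, Apoa2, Apoa4, Apoa5, Apob, Apoc1, Apoc3, Apoe, Apon and Mttp were looked up by gene name in the table of gene levels, which held 52151 entries. Of these genes, 8 had an entry of their own with a known transcript. The transcripts of Apoe lay inside the entry named Tomm40 and those of Apoa5 inside the entry named Bud13, so both genes were measured only together with their neighbours. A further 2 rows carried the names Apoa2 and Apoc1 but held only transcripts assembled from these libraries, and they reached at most 2.26 FPKM.

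Liver RNA was sequenced from 3 mice on an isocaloric control liquid diet (PF), 3 mice on the Lieber-DeCarli alcohol diet (AF) and 3 mice on the same alcohol diet with a daily intraperitoneal injection of MNA at 50 mg/kg (AF with MNA). All mice were 8 weeks old by their labels and were fed for 5 weeks, and the methods describe males that were fasted before sampling. The strain label was C57BL/6 in PF and AF, but C57BL/7, C57BL/8 and C57BL/9 in the 3 libraries of AF with MNA, and MNA is not spelled out. Each mouse gave 1 library, and nothing states litters, cages or days.

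Apolipoproteins are the proteins that coat lipoprotein particles, which carry lipid in blood. In the hepatocyte, the microsomal triglyceride transfer protein (Mttp) loads lipid onto the growing Apob chain, and the resulting very low density lipoprotein (VLDL) leaves the cell through the secretory pathway. Apoa1 and Apoa2 are the main proteins of high density lipoprotein (HDL), whereas small exchangeable apolipoproteins such as Apoc1, Apoc3, Apoa4, Apoa5 and Apoe move between particles and regulate lipolysis and uptake.

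Total reads per library ranged from 57800660 to 82179248. Levels are in FPKM, a fragment count divided by transcript length and by library size, so that levels of different genes are per length. Summed FPKM of 8 listed hepatocyte markers was 23530 to 28340 in PF, 22830 to 30160 in AF and 27050 to 29910 in AF with MNA, and the adipocyte markers Adipoq, Plin1 and Cfd stayed under 0.5 FPKM in all libraries. AF replicate 3 and AF with MNA replicate 1 stood apart by their intronic lncRNA, with summed FPKM of 9433 and 8934 against 2477 to 4937 in the other libraries. In bulk liver, fewer cells of a type and less RNA per cell cannot be told apart.

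Between AF and PF, 2 of the 8 genes with an entry of their own passed a threshold of an unadjusted limma p under 0.05 with a log2 ratio of group means above 1 or below -1. These limits are the ones stated for lncRNAs in the methods, where Ballgown gave the p-value, and limma was used here for genes and lncRNAs alike. Apoa4 was higher and Apon was lower in AF, while Apob, Mttp, Apoa1, Apoa2, Apoc1 and Apoc3 did not pass. Among all 12268 entries tested, 4.30% passed the same threshold. After Benjamini-Hochberg adjustment over all entries, 0 of the 8 genes had an adjusted p under 0.05, and 0.326% of all entries had one. At an unadjusted p under 0.05 by limma, 2 of the 8 passed, beside 11.7% of all entries, and the linear model with a library-size covariate and no moderation called 0. The median log2 ratio of the 8 genes was -0.04, beside -0.03 over all entries.

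**Figure D1:**
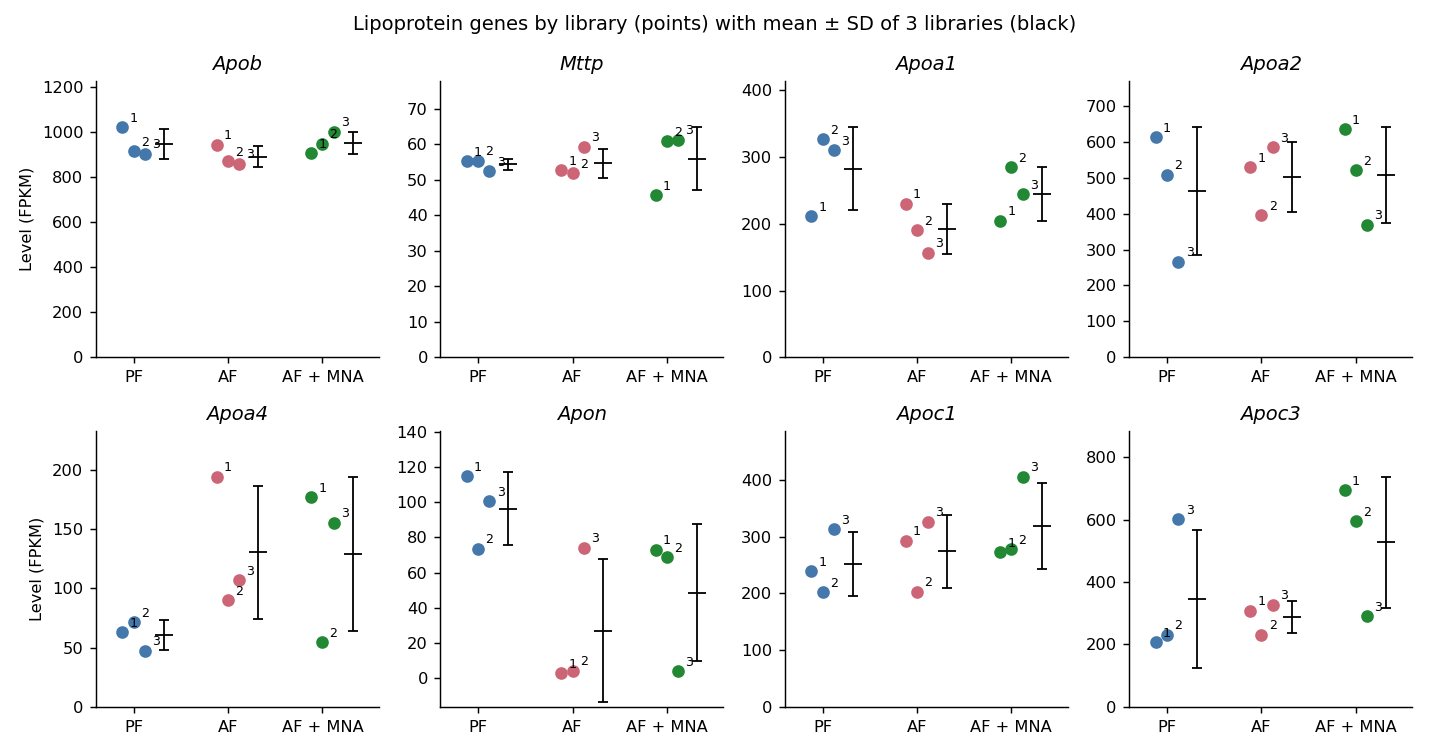
Level of each gene (y axis, FPKM, starting at 0 except for Apon) in each library (points, numbered by replicate) of the 3 groups (x axis), with the mean ± SD of 3 libraries in black. Apob and Mttp lay close together in all groups, Apoa4 was higher in all AF than in all PF libraries, and Apon was near 0 in 2 AF libraries and 1 AF with MNA library.

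Apob, the structural protein of VLDL, was the most abundant of the genes in every library. Its level was 1021, 915 and 902 FPKM in PF, 942, 871 and 858 FPKM in AF, and 904, 947 and 1000 FPKM in AF with MNA. The 3 groups overlapped, and the highest library was 1.19 times the lowest. The fitted difference of AF from PF was -0.09 ± 0.16 (SE) on the log2(FPKM + 1) scale, with a limma adjusted p of 0.869.

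Mttp measured 55.2, 55.4 and 52.4 FPKM in PF, 52.8, 51.9 and 59.3 FPKM in AF, and 45.8, 60.9 and 61.4 FPKM in AF with MNA. All groups overlapped, with a fitted difference of AF from PF of 0.01 ± 0.12 (SE) and a limma adjusted p of 0.99. Among the 8 genes, Apob and Mttp had the smallest spread over the 9 libraries, with 1.34 times between the highest and the lowest Mttp level.

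Apoa1, the main protein of HDL, was 212, 327 and 310 FPKM in PF. It was 230, 190 and 157 FPKM in AF, where only replicate 1 reached into the PF range. With MNA the levels were 204, 285 and 245 FPKM. The log2 ratio of AF over PF was -0.56 (limma adjusted p = 0.442), so the lower AF mean of 192 against 283 FPKM did not pass.

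Apoa2, the other abundant HDL protein, varied widely within every group. PF libraries held 613, 509 and 267 FPKM, AF libraries 529, 395 and 585 FPKM, and AF with MNA libraries 635, 521 and 370 FPKM. The spread within PF alone exceeded the difference between any group means, and the limma adjusted p of AF against PF was 0.872.

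Apoa4, an exchangeable apolipoprotein of intestine and liver, was 63.1, 71.6 and 47.3 FPKM in PF. In AF it was 194, 89.9 and 107 FPKM, and in AF with MNA 177, 54.7 and 156 FPKM. Every AF library was above every PF library, and replicate 2 of AF with MNA lay within the PF range. Across all entries tested, 18.3% had AF and PF libraries that did not overlap, and Apoa4 was the only one of the 8 genes that did. The mean was 60.7 ± 12.3 FPKM in PF and 130 ± 55.9 FPKM in AF (SD), a ratio of 2.15 with a log2 ratio of 1.10. The unadjusted limma p was 0.0152 and the adjusted p 0.313. The log2 ratio was 0.70 without AF replicate 1 and 0.95 without PF replicate 3, both under the limit of 1. With all 9 libraries in the fit the unadjusted limma p was 0.0527. In the linear model with a library-size covariate and no moderation, p was 0.0912.

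Apoa4 is also made in the gut, and the markers of small intestine epithelium were read beside it. Lct, Vil1 and Muc2 were under 0.5 FPKM in all 9 libraries. The summed FPKM of the 4 markers listed of 6 was 14.7 to 26.8 in PF, 5.15 to 8.58 in AF and 9.92 to 14.1 in AF with MNA, nearly all from Fabp2. Fabp2, the 1 of these markers that was tested, was lower in AF than in PF past the threshold, with a log2 ratio of -1.46. Any part of gut tissue in the Apoa4 levels was not tested.

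The 3 entries whose levels over the 9 libraries were most like Apoa4, by Pearson r of log2(FPKM + 1) among 3607 entries with a mean of at least 5 FPKM, were Tkfc (r = 0.93), Gm4737 (r = 0.926) and Znfx1 (r = 0.913). Tkfc, a kinase of dihydroxyacetone and glyceraldehyde, was 103 to 117 FPKM in PF, 114 to 167 FPKM in AF and 119 to 178 FPKM in AF with MNA.

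Apon, a minor apolipoprotein of mouse liver, fell into 2 separate levels. It was 115, 73.6 and 100 FPKM in PF. In AF it was 3.00 and 4.23 FPKM in replicates 1 and 2 but 74.0 FPKM in replicate 3. With MNA it was 73.0 and 68.8 FPKM in replicates 1 and 2 but 3.86 FPKM in replicate 3. Thus 3 of the 6 alcohol-fed libraries were near 4 FPKM, the other 3 were near 70 FPKM, and no library lay between them. AF replicate 3 lay just above the lowest PF library, so AF and PF overlapped.

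The mean of Apon was 96.2 ± 20.8 FPKM in PF and 27.1 ± 40.6 FPKM in AF (SD), and the SD in AF exceeded the mean. The log2 ratio was -1.83, with an unadjusted limma p of 0.0269 and an adjusted p of 0.365. Without AF replicate 3 the log2 ratio was -4.73. The call was lost on the p-value without PF replicate 1 (log2 ratio -1.68), PF replicate 3 (-1.80), AF replicate 1 (-1.30) or AF replicate 2 (-1.32). The 3 alcohol-fed libraries with low Apon had 62478547, 59831743 and 57800660 total reads and the other 3 had 74499848 to 82179248, while PF replicate 3 held 100 FPKM at 61286037 reads. AF replicate 3 and AF with MNA replicate 1, which had the highest intronic lncRNA sums, had 74.0 and 73.0 FPKM of Apon. AF with MNA replicate 2 had 68.8 FPKM of Apon at the lowest sum of 2477. The part of depth and of intronic RNA in the Apon levels was not tested.

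Nipsnap1 (r = 0.975), Cltb (r = 0.921) and Dnajc22 (r = 0.914) were the 3 entries most like Apon, chosen by the same rule. Because Apon forms 2 clusters of libraries, these r values rest on the step between the clusters and are given as a description. Nipsnap1, a mitochondrial protein, was 34.8, 28.0 and 32.6 FPKM in the 3 libraries with low Apon and 57.1 to 66.0 FPKM in the other 6. Cltb, a light chain of clathrin, was 3.00 to 3.39 FPKM in those 3 libraries and 5.17 to 7.84 FPKM in the others. Dnajc22, a protein with a J domain, was 6.27 to 6.81 FPKM against 8.80 to 11.4 FPKM. All 3 genes were thus lowest in the libraries in which Apon was lowest. Such a step was then looked for in other entries, by a rule chosen after the Apon values were seen. Of 4041 entries that reached 5 FPKM in their third-highest library, 99 split into libraries under 10% and libraries above 40% of that level, with none between. None of the 99 had AF replicates 1 and 2 and AF with MNA replicate 3, and no others, as its low libraries, apart from Apon. The rule admits only drops to under 10%, so the smaller drops of Nipsnap1, Cltb and Dnajc22 could not count. It therefore does not show that the library pattern is particular to Apon.

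**Figure D2:**
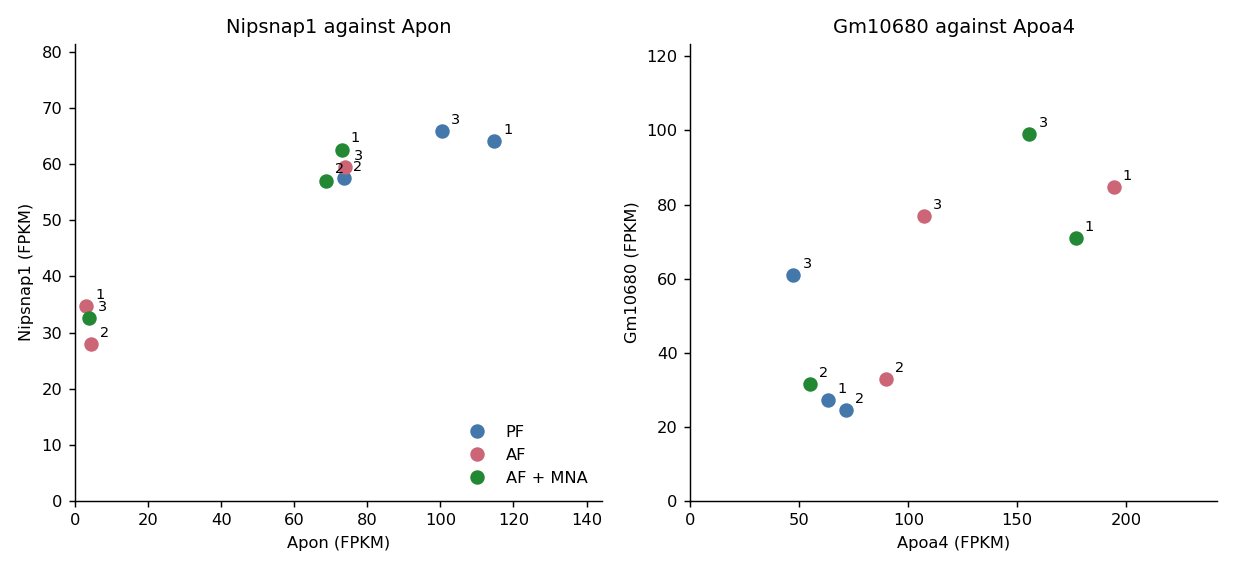
Left, Nipsnap1 (y axis, FPKM) against Apon (x axis, FPKM) in the 9 libraries, with 3 libraries at low Apon and 28.0 to 34.8 FPKM of Nipsnap1. Right, the antisense lncRNA Gm10680 (y axis, FPKM) against Apoa4 (x axis, FPKM), where PF replicate 3 had more Gm10680 than Apoa4; colours mark groups and numbers mark replicates.

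The stretch before the annotated start is shown for the 2 genes that passed the threshold, from RefSeq on GRCm38.p6, plus strand, 5′ to 3′, up to the first start in GENCODE M21. Capitals mark the only match to the 4 motifs searched. The Apon stretch is chr10:128253881-128254095 and the Apoa4 stretch is chr9:46240594-46240695.
Apon: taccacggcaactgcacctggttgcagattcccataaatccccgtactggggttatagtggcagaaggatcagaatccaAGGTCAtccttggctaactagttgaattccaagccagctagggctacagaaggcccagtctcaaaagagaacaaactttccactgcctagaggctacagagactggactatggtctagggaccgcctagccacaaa
Apoa4: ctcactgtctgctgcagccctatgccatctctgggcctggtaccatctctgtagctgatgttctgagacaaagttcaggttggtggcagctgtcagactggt

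Motifs were searched on both strands in the 12 promoter windows that 8 of the 10 genes had, from 250 bases before to 50 after the RefSeq start. The nuclear receptor element TGACCT was found for Apoa2 and Apon, in Apon on the other strand, as the AGGTCA in capitals above, 171 bases before the RefSeq start at position 128254131. This start lies downstream of the first GENCODE start at 128254096, just before which the stretch above ends. The element was present in 16.3% of 32817 promoter windows. In Apoa2 it lay in the window chr1:171221314-171221613. The other Apoa2 window, chr1:171224804-171225103, which spans the GENCODE start at 171225054, held no match. The E-box type CCACGTG was found for Apoa5 alone (3.87% of all windows) and the TGACGT element of CREB type for Mttp alone (7.51% of all windows). The HNF4A type CAAAGTCCA was found in none of the 12 windows and in 0.475% of all. The windows of Apoa1, Apoa4, Apob and Apoe held none of the 4.

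Apoc1, a small apolipoprotein that inhibits lipolysis and uptake, was 239, 202 and 314 FPKM in PF, 293, 203 and 327 FPKM in AF, and 273, 278 and 406 FPKM in AF with MNA. The groups overlapped in all 3 comparisons, and the largest of its 3 log2 ratios was 0.34, of AF with MNA over PF, with a limma adjusted p of 0.573.

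Apoc3, an inhibitor of lipoprotein lipase and of particle clearance, was 207, 232 and 601 FPKM in PF. It was 309, 231 and 328 FPKM in AF, and 695, 595 and 291 FPKM in AF with MNA. High levels of 595 to 695 FPKM thus stood in 1 PF library and 2 AF with MNA libraries, and each of the other 6 was at 328 FPKM or lower. The log2 ratio of AF with MNA over AF was 0.87 (limma adjusted p = 0.94), and without AF with MNA replicate 3 it was 1.16 and passed. For AF over PF the log2 ratio was -0.26, and without PF replicate 3 its sign turned, to 0.40.

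Apoe, the ligand of the hepatic remnant receptors, could be read only in the Tomm40 entry, which pools it with a mitochondrial import pore gene. The entry was 306, 227 and 297 FPKM in PF, 223, 215 and 324 FPKM in AF, and 265, 277 and 245 FPKM in AF with MNA. The groups overlapped, with a limma adjusted p of 0.851 for AF against PF. The share of either gene in the value cannot be told apart.

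Apoa5, an activator of lipolysis, was pooled with Bud13 and Zpr1. That entry was 20.9, 21.9 and 14.3 FPKM in PF, 16.1, 10.9 and 10.3 FPKM in AF, and 13.2, 14.6 and 20.1 FPKM in AF with MNA. Only AF replicate 1 lay within the PF range, and the log2 ratio of -0.61 did not reach the threshold (limma adjusted p = 0.407).

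The entry of Apoc4 also held Apoc2, the activator of lipoprotein lipase, and lies beside Apoc1 and Apoe. Its level was 77.8, 68.8 and 45.6 FPKM in PF, 43.1, 29.3 and 43.4 FPKM in AF, and 70.9, 54.0 and 85.8 FPKM in AF with MNA. All AF libraries were below all PF libraries and below all AF with MNA libraries, beside 18.3% and 10.1% of all entries without overlap in these comparisons. The log2 ratio was -0.73 for AF over PF (limma adjusted p = 0.375) and 0.86 for AF with MNA over AF (limma adjusted p = 0.94). Both comparisons use the same AF libraries, and neither ratio passed the limit of 1. Without AF with MNA replicate 2 the latter ratio was 1.02 and passed.

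In PF the order of levels was Apob at 946 FPKM, Apoa2 at 463, Apoc3 at 347, Apoa1 at 283, Apoc1 at 252, Apon at 96.2, Apoa4 at 60.7 and Mttp at 54.4 FPKM. Libraries of Apoa2, Apoc3, Apoa1 and Apoc1 overlapped with those of their neighbours in this order, as did Apoa4 and Mttp, whereas Apob stood above and Apon stood apart from its neighbours on both sides. In AF, Apoa4 ranked above Mttp without overlap and Apon ranked last at 27.1 FPKM, overlapping with Mttp because it was 74.0 FPKM in AF replicate 3. Across the 9 libraries the highest level was 2.01 times the lowest for Apoc1, 2.09 for Apoa1, 2.38 for Apoa2, 3.35 for Apoc3, 4.11 for Apoa4 and 38.2 for Apon. The 8 genes summed to between 2036 and 3006 FPKM, which was 1.02% to 1.51% of the FPKM of all named entries with a known transcript. An entry's value can be below the sum of its transcripts: in 107 of 112 entries made only of lncRNA transcripts, with at least 2 transcripts and a mean of at least 1 FPKM, it was lower by more than 2%. What this does to the order across genes was not tested.

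MNA was given on top of the alcohol diet, and AF with MNA was compared with AF and with PF. Against AF, 0 of the 8 genes passed the threshold by limma, 0 had an unadjusted p under 0.05, and the covariate model also called 0. Of all 12214 entries, 1.98% passed it, 5.22% had an unadjusted p under 0.05 by limma and 0.0491% had an adjusted p under 0.05. None of the 8 genes had separated groups, beside 10.1% of all entries. The ratio of AF with MNA over AF was above 1 for 7 of the 8 genes and for 51.2% of all entries, and the median log2 ratio was 0.16 for the 8 genes and 0.01 for all entries. Apoa4 had means of 130 and 129 FPKM, and Apon had 27.1 and 48.5 FPKM, with a fitted difference for Apon of 1.33 ± 1.47 (SE). The log2 ratio of Apon was 0.84 with all libraries, 3.75 without AF replicate 3 and 0.31 without AF replicate 1.

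Against PF, 0 of the 8 genes passed in AF with MNA by limma or by the covariate model, and 0 had an unadjusted limma p under 0.05. The background was 3.89% of 12276 entries past the threshold, 14.5% with an unadjusted limma p under 0.05 and 0.432% with an adjusted p under 0.05. Apon was the only gene of the 8 whose groups did not overlap, beside 21.4% of all entries, with every AF with MNA library below every PF library and a log2 ratio of -0.99 (limma adjusted p = 0.528). The highest AF with MNA library, at 73.0 FPKM, lay just under the lowest PF library, at 73.6 FPKM. The log2 ratio was -0.44 without AF with MNA replicate 3 and -1.41 without AF with MNA replicate 1. The log2 ratio of Apoa4 was 1.09, with an unadjusted limma p of 0.088 and an adjusted p of 0.434, close to that of AF over PF, which shares the PF libraries. Without AF with MNA replicate 2 it was 1.45 and passed, and for Apoc3 the ratio without PF replicate 3 was 1.26 and passed.

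**Figure D3:**
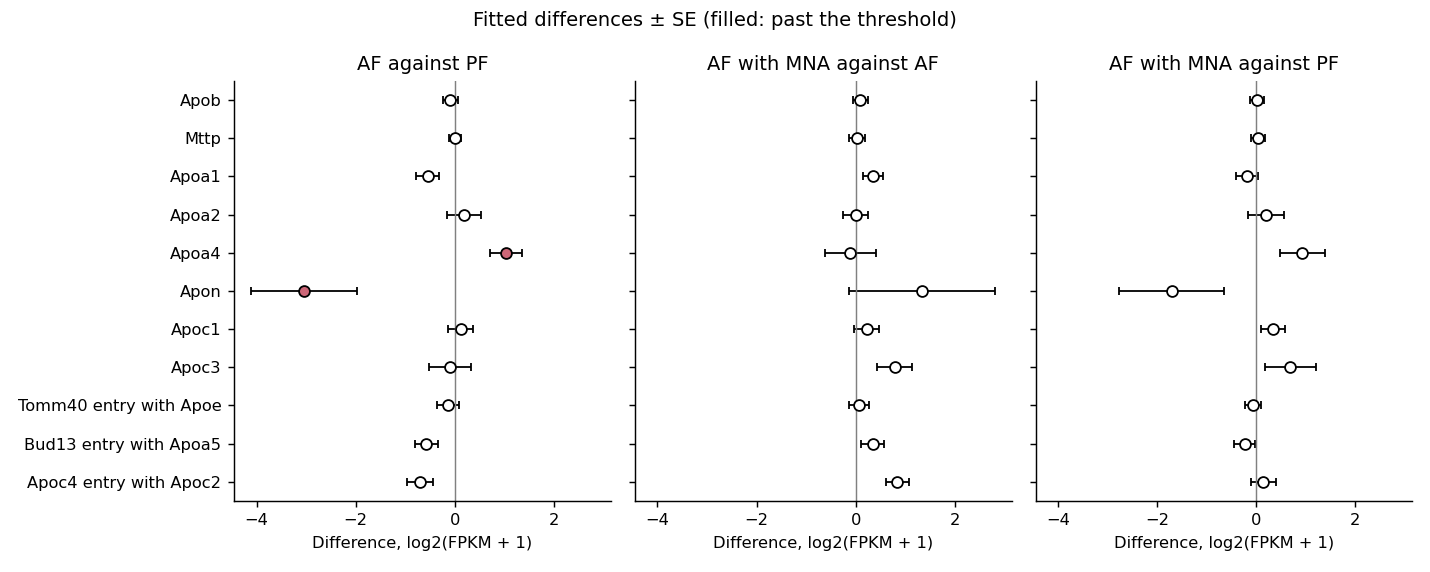
Fitted difference ± SE on the log2(FPKM + 1) scale (x axis) of the 8 genes and of the 3 entries that pool several coding genes (y axis), in each comparison of 3 against 3 libraries. Filled points, Apoa4 and Apon in AF against PF, are those past the threshold.

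**Figure D4:**
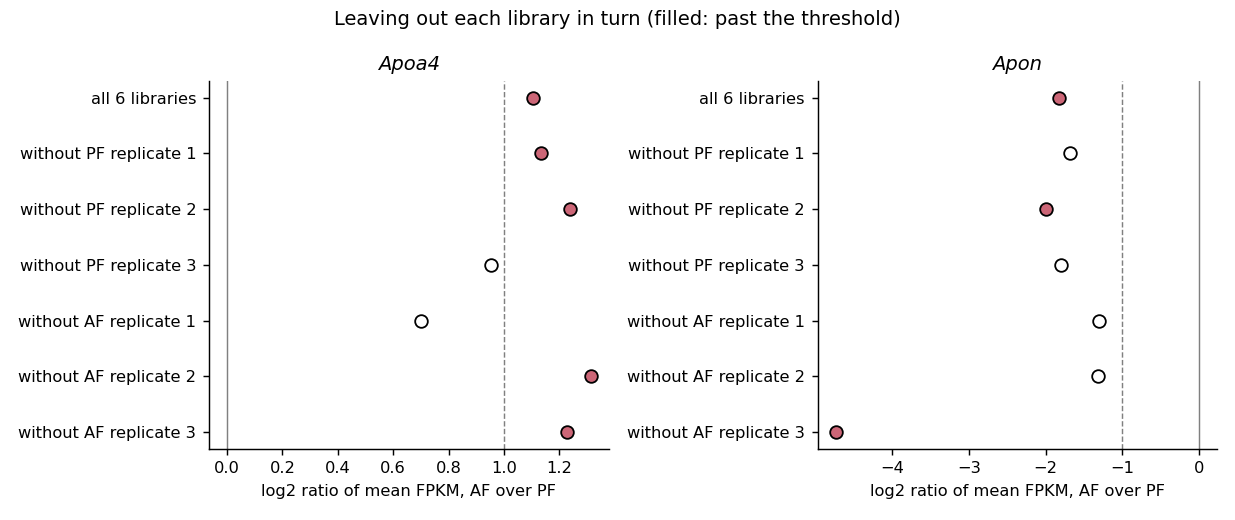
Log2 ratio of mean FPKM in AF over PF (x axis) for Apoa4 and Apon with all 6 libraries and with each library left out (y axis); filled points passed the threshold and dashed lines mark its fold limit. Apoa4 failed in 2 of the 6 omissions and Apon in 4 of the 6, with the Apon ratio reaching -4.73 without AF replicate 3.

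The rest of the pathway was read from 8 lists of other apolipoproteins, VLDL assembly and secretion, Apob messenger RNA editing, HDL formation, clearance receptors, lipase control, transcription factors and neighbouring genes. Of 106 genes reported here, 96 had an entry of their own. Of the 93 tested between AF and PF, 1 was higher and 3 were lower past the threshold, 4.30% in all beside 4.30% of all entries. Of 93 tested between AF with MNA and AF, 1 was higher, 1.08% beside 1.98% of all entries. Of 92 tested between AF with MNA and PF, 2 were higher and 2 lower, 4.35% beside 3.89% of all entries. No listed gene had a limma adjusted p under 0.05, and 17, 5 and 17 had an unadjusted p under 0.05 in the 3 comparisons in this order, beside 11.7%, 5.22% and 14.5% of all entries. Separate groups of listed genes below stand beside 18.3%, 10.1% and 21.4% of all entries without overlap, in the same order.

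Among 21 genes of VLDL assembly and secretion, Hspa5 was lower and Ces1g higher in AF than in PF, beside 4.30% of all entries past the threshold. The list's median log2 ratio was 0.04. An unadjusted limma p under 0.05 was found for 6 of the 21, beside 11.7% of all entries. Besides Hspa5 and Ces1g these were Tm6sf2 and Mia3, higher in AF, and Cideb and Pdia3, lower in AF, named after their values were seen. In 3 genes all AF libraries were above all PF libraries and in 5 all were below, beside 18.3% of all entries without overlap. Hspa5, the chaperone BiP of the endoplasmic reticulum, was 124, 85.1 and 69.7 FPKM in PF, 37.7, 42.8 and 44.5 FPKM in AF, and 29.7, 53.0 and 52.7 FPKM in AF with MNA. All alcohol-fed libraries were below all PF libraries, with a log2 ratio of -1.16 in AF (limma adjusted p = 0.144) and -1.04 in AF with MNA (adjusted p = 0.249). Without PF replicate 1 these ratios were -0.89 and -0.78, and without AF with MNA replicate 1 the latter was -0.81, all within the limit.

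Ces1g, a carboxylesterase of hepatic triglyceride handling, was 45.7, 39.3 and 46.9 FPKM in PF, 137, 52.4 and 96.8 FPKM in AF, and 126, 62.4 and 70.9 FPKM in AF with MNA. Its groups did not overlap with PF, and the log2 ratio of AF over PF was 1.12 (limma adjusted p = 0.355). It failed on the p-value without PF replicate 2 (log2 ratio 1.04) or AF replicate 3 (1.11), and on both criteria without AF replicate 1 (0.76). Cidec, a lipid droplet protein, was low, at 0.33 to 0.53 FPKM in PF and 0.78 to 1.67 FPKM in AF with MNA, where it passed with a ratio of 2.46 over PF (limma adjusted p = 0.283). Without AF with MNA replicate 3 its log2 ratio was 0.88, and without PF replicate 1 it was 1.11 and failed on the p-value.

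Of the clearance genes reported here, Lrp1, an endocytic receptor of remnant particles, was 103 to 163 FPKM and the asialoglycoprotein receptor subunit Asgr1 was 67.2 to 96.2 FPKM over the 9 libraries, with all groups overlapping. The median log2 ratio of AF over PF was -0.09 over the 10 tested, and 3 of the 10 had an unadjusted limma p under 0.05, beside 11.7% of all entries.

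Of 22 transcription factors and coactivators, Onecut1 was lower in AF than in PF and Foxa2 was higher in AF with MNA than in AF. Onecut1, a hepatic homeobox factor, was 3.64, 2.25 and 6.71 FPKM in PF, 1.58, 1.19 and 1.31 FPKM in AF, and 0.85, 3.45 and 6.86 FPKM in AF with MNA, with a log2 ratio of -1.63 in AF (limma adjusted p = 0.293). With all 9 libraries in the fit or with the library-size covariate this call was lost, as was the call of Foxa2 with the covariate. Foxa2, a forkhead factor of liver genes, was 1.11, 0.93 and 1.15 FPKM in AF and 2.42, 9.69 and 3.56 FPKM in AF with MNA, with a log2 ratio of 2.30 (limma adjusted p = 0.94). Without AF with MNA replicate 2 the ratio was 1.49 and still passed. PF libraries of Foxa2 ranged from 0.21 to 3.31 FPKM and overlapped with both. The list medians were -0.13 and 0.12 in these comparisons.

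Among the 11 genes tested in the list of other apolipoproteins, which also holds the paraoxonase genes Pon1 and Pon3, Apol7a passed. It was 5.09, 4.59 and 4.93 FPKM in PF, 2.34, 0.53 and 3.28 FPKM in AF, and 2.87, 1.39 and 1.34 FPKM in AF with MNA, below PF in all alcohol-fed libraries. The log2 ratio was -1.25 in AF (limma adjusted p = 0.356) and -1.38 in AF with MNA (adjusted p = 0.129). The AF call failed on the p-value without PF replicate 1 (log2 ratio -1.22) or PF replicate 3 (-1.24), and on the ratio without AF replicate 2 (-0.79).

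Beside the genes in the genome, Nr1i3, the xenobiotic receptor CAR located near Apoa2, was 11.3, 16.0 and 12.1 FPKM in PF, 14.2, 12.7 and 54.1 FPKM in AF, and 25.8, 47.2 and 18.3 FPKM in AF with MNA. It passed in AF with MNA against PF (log2 ratio 1.21, limma adjusted p = 0.273), where its groups did not overlap. It failed on the p-value without PF replicate 1 (log2 ratio 1.11) or PF replicate 3 (1.16), and on the ratio without AF with MNA replicate 2 (0.75). Of the 8 neighbours tested between AF and PF, 0 passed the threshold by limma or by the covariate model, and 1, Sik3 (log2 ratio 0.43, limma adjusted p = 0.387), had an unadjusted limma p under 0.05, beside 11.7% of all entries. Sik3 was named after its values were seen.

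No gene of the editing, HDL and lipase lists passed in any comparison, by limma or by the covariate model. In the editing list, A1cf, the cofactor that guides Apob editing, was 9.87 to 13.6 FPKM in PF, 7.53 to 12.1 FPKM in AF and 13.3 to 15.2 FPKM in AF with MNA, and Rbm47 was 2.56 to 5.67 FPKM in all libraries. Of the HDL list, Lcat, which esterifies cholesterol on HDL, was 191 to 234 FPKM and the HDL receptor Scarb1 11.9 to 17.1 FPKM over the 9 libraries. In AF against PF, 2 of the 10 HDL genes had an unadjusted limma p under 0.05, Pltp and Abcg8, named here after their values were seen, beside 11.7% of all entries. Pltp, the phospholipid transfer protein, had means of 11.2 FPKM in PF, 7.06 FPKM in AF and 7.64 FPKM in AF with MNA, with all alcohol-fed libraries below all PF libraries (log2 ratio of AF over PF -0.66, limma adjusted p = 0.125). Abcg8, a sterol transporter, had means of 11.1 FPKM in PF and 18.8 FPKM in AF, without overlap (log2 ratio 0.76, limma adjusted p = 0.313). Of the lipase list, the lipase inhibitor Angptl4 was 18.3 to 24.3 FPKM in PF, 23.8 to 35.8 FPKM in AF and 30.5 to 35.7 FPKM in AF with MNA. All AF with MNA libraries of Angptl4 were above all PF libraries, with a log2 ratio of 0.59 (limma adjusted p = 0.182). The protease Furin was 18.9 to 32.6 FPKM over the 9 libraries. The 1 lipase gene of 8 with an unadjusted limma p under 0.05 in AF against PF was Angptl6, also named after its values were seen, with means of 4.53 FPKM in PF and 2.85 FPKM in AF, all AF libraries below all PF libraries and a log2 ratio of -0.67 (limma adjusted p = 0.39). Of all entries, 11.7% had such a p. The list medians of AF over PF were -0.38 for editing over 3 genes, -0.11 for HDL over 10, 0.19 for lipase control over 8, 0.13 for other apolipoproteins and 0.30 for neighbours.

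**Figure D5:**
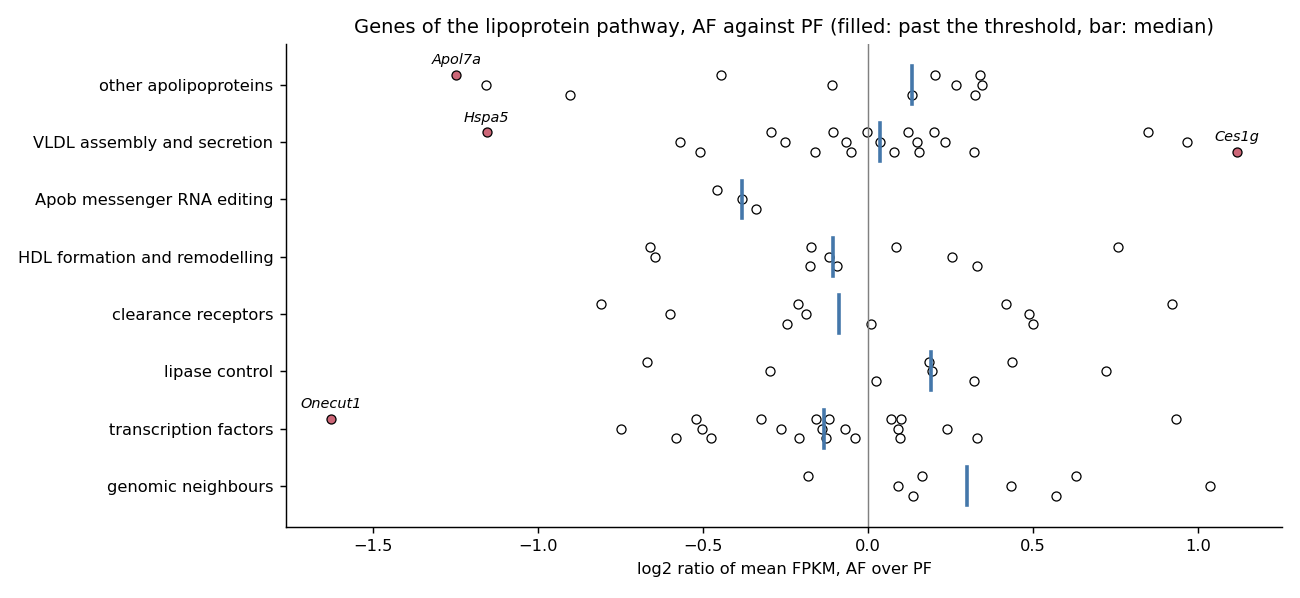
Log2 ratio of mean FPKM in AF over PF (x axis) for each tested gene of the 8 lists (rows); filled and named points passed the threshold and blue bars are list medians. The 4 named genes are Apol7a, Hspa5, Ces1g and Onecut1, and the medians lie between -0.38 and 0.30.

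Some lncRNA transcripts lie across these genes on the opposite strand. The lncRNA table held 6 transcripts that overlapped one of the 10 genes or started within 5000 bases, and 4 were above 0 in at least 3 libraries. In AF against PF, 0 of the 6 passed the threshold, beside 2.47% of 18310 lncRNA transcripts, and 0 had an unadjusted limma p under 0.05. Without PF replicate 3 the number was 2, Gm10680 and RP24-302M3.5, and without AF replicate 2 it was 1, Gm10680. The libraries mark strand, but the sources used here do not say whether counting used it, so reads of a gene and its antisense partner may not be told apart.

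Gm10680 (chr9:46242621-46243529, minus strand, GRCm38) covers the end of Apoa4, and 632 of its 702 exonic bases lie on Apoa4 exons. It measured 27.1, 24.5 and 60.9 FPKM in PF, 84.8, 32.9 and 77.0 FPKM in AF, and 70.9, 31.5 and 99.1 FPKM in AF with MNA. The groups overlapped, and the log2 ratio of AF over PF was 0.79 (limma adjusted p = 0.598). Its level was 0.342 to 0.719 times that of Apoa4 in 8 libraries and 1.29 times in PF replicate 3. Over the 9 libraries the levels had r = 0.69 (exact permutation p = 0.0475, adjusted over 9 pairs of neighbouring entries p = 0.427) and rho = 0.68 (exact permutation p = 0.0503, adjusted p = 0.29). Without the 2 libraries farthest from the median of Apoa4, r was 0.59, and for deviations from the group means it was 0.55. The permutation exchanged all 9 libraries, so differences between groups enter r and its p, here and for the other pairs.

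RP24-302M3.5 (chr9:46239841-46242032, minus strand) covers the start of Apoa4 with 634 of its 2192 bases on exons, and it stayed between 0 and 3.25 FPKM. RP23-433B2.9, named Gm47544 in GENCODE (chr9:46270035-46271365, minus strand), has all 524 exonic bases on Apoa5 exons. It was 160, 145 and 165 FPKM in PF, 175, 128 and 192 FPKM in AF, and 180, 245 and 249 FPKM in AF with MNA. These levels were 6.63 to 18.6 times those of the entry that holds Apoa5. All AF with MNA libraries were above all PF libraries, but the log2 ratio of 0.52 did not pass (limma adjusted p = 0.276). Of all gene entries, 21.4% had AF with MNA and PF libraries that did not overlap.

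Gm43691 (chr3:138103916-138114717, plus strand) lies inside Mttp with 132 of its 697 exonic bases on Mttp exons. It was 3.37 to 3.80 FPKM in PF, 3.24 to 4.23 FPKM in AF and 4.45 to 5.13 FPKM in AF with MNA, where all libraries were above those of PF and AF. Groups did not overlap in 21.4% of all gene entries for AF with MNA against PF and in 10.1% against AF. The log2 ratio of AF with MNA over PF was 0.37 (limma adjusted p = 0.274). The other 2 transcripts, assembled near Mttp, were each above 0 in 2 libraries.

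Neighbouring genes were compared over the 9 libraries. The exact permutation p of r, before adjustment, was 0.585 for Apoa1 with Apoc3 (r = 0.21), 0.207 for Apoa1 with Apoa4 (r = -0.46) and 0.915 for Apoc3 with Apoa4 (r = -0.04), although these 3 genes lie side by side on chromosome 9. On chromosome 7, Apoc1 had r = 0.37 with the Tomm40 entry and r = 0.26 with the Apoc4 entry (exact permutation p = 0.32 and 0.499). The smallest adjusted p over the 9 pairs was 0.29.

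Circular RNAs of these genes were rare. The circRNA table, which counts reads across back-splice junctions, held 9 circRNAs of 4 of the genes, 5 from Apob, 2 from Apoe, 1 from Apoa5 and 1 from Mttp, with 17 junction reads of 17959 in all. Only the exonic circRNA of Mttp (chr3:138115136-138118420, 4 exons) was seen in at least 3 libraries, with 0, 1 and 3 reads in PF. It had 1 read in AF replicate 3 and 1 read in AF with MNA replicate 2, and 0 in the other 4 libraries. The other 8 were each seen in 1 library with 1 or 2 reads, so no difference between groups was detectable at this depth.

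Markers of other liver cells were counted beside these values. Of the Kupffer cell markers, Marco was higher in AF and in AF with MNA than in PF past the threshold, and the other 7 of 8 were not, with summed FPKM of 75.8 to 111 in PF, 78.1 to 152 in AF and 99.0 to 127 in AF with MNA. Of 8 hepatocyte markers, Tat was higher in AF than in PF past the threshold. Among all entries, 4.30% passed it in AF against PF, 1.98% in AF with MNA against AF and 3.89% in AF with MNA against PF. None of the 6 endothelial and 6 stellate cell markers passed in any comparison. The summed FPKM of the endothelial markers was 24.1 to 31.1 in PF, 28.7 to 40.2 in AF and 36.6 to 40.2 in AF with MNA, so all AF with MNA libraries were above all PF libraries. Stellate cell markers summed to 32.9 to 52.4 FPKM over the 9 libraries, with overlapping groups. The 5 cholangiocyte markers summed to 3.27 to 4.31 FPKM in PF, 4.86 to 9.12 FPKM in AF and 3.34 to 6.33 FPKM in AF with MNA, with Krt7 and Epcam under 0.5 FPKM in all libraries. Every AF library was thus above every PF library in this sum, as for Apoa4. Of single entries, 18.3% did not overlap between AF and PF, and 21.4% did not between AF with MNA and PF. Blood cell markers summed to 156 to 392 FPKM. Their part in the levels of Apoa4 and Apon was not tested.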

How the data were processed

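The authors sequenced ribosomal RNA-depleted, strand-marked libraries and deposited FPKM values made with StringTie for genes (2 decimals) and lncRNA transcripts. The deposited circRNA count values are junction reads, and the deposited signal, scaled by library, gave the total reads at a read length of 150. The submitters' processing notes name cutadapt 1.9, FastQC, HISAT2, StringTie 1.3.4, edgeR and TopHat. The genome build is not given in the sources used here, and 7708 of 7841 lncRNA identifiers found in GENCODE M21 (GRCm38) had the same start and end.

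Gene entries with a known transcript, a name and a mean of at least 0.5 FPKM (lncRNA transcripts 0.1) over the 6 libraries compared were fitted with limma 3.58.1 in R 4.3.3 (lmFit, eBayes with trend) on log2(FPKM + 1), a pseudocount of 1 that understates changes of low genes, with Benjamini-Hochberg adjustment. Apoc2 and other pooled genes were left out of the list counts. Some listed genes are not reported here. Genes past the threshold were named per list (at most 6, otherwise the 2 most abundant). The fit was tested on simulated data. Limma p-values set the difference of 2 groups against the spread between these samples, with variances moderated over all entries. The genes and lists were chosen with earlier results of these data known. Alternatives were a pseudocount of 0.1, median scaling, no filter or a minimum of 2 FPKM (lncRNA 0.5), no trend, all 9 libraries, a replicate block, a library-size covariate, the fitted coefficient as ratio and each library left out.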

Additional observations from a re-analysis of the deposited data

How the results depend on the processing

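The tables give FPKM without read counts, so precision rests on 3 libraries a group. The 2 genes past the threshold in AF against PF became 1 with all 9 libraries in the fit and 0 with the library-size covariate, and 0 to 2 with each library left out. The 0 genes of the MNA comparisons became 0 to 1 with a library left out, as did the 0 lncRNA transcripts with 0 to 2. A replicate block, whose numbers did not pair the libraries (correlation of deviations -0.079 to 0.062), left 2, 0 and 0 genes past the threshold and moved the 527 entries of AF against PF to 562. Among all entries, the counts of AF against PF, AF with MNA against AF and AF with MNA against PF (527, 242 and 477) became 1183, 676 and 1105 without a filter, 265, 81 and 228 with a minimum of 2 FPKM, 335, 106 and 246 with the covariate, and 249, 99 and 229 with the fitted coefficient as ratio. With each library left out they ranged from 516 to 764, 211 to 367 and 467 to 545. The cause was not tested where neither fewer entries nor fewer libraries were involved.

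Of 360 alternative values for the 8 genes, 325 kept direction and side of the threshold, 9 lost it, 3 gained it and 23 changed sign. The Apoa2 ratio of AF with MNA over AF was -0.0011 as a fitted coefficient. With each library left out, the log2 ratio of AF over PF ranged from -0.16 to 0.38 for Apoa2, -0.024 to 0.31 for Apoc1, -0.53 to 0.40 for Apoc3 and -0.054 to 0.045 for Mttp. That of AF with MNA over AF ranged from -0.18 to 0.20 for Apoa2, -0.31 to 0.39 for Apoa4, -0.036 to 0.16 for Mttp and -0.059 to 0.26 for the Tomm40 entry. That of AF with MNA over PF ranged from -0.14 to 0.39 for Apoa2, -0.032 to 0.065 for Apob, -0.027 to 0.17 for Mttp, -0.20 to 0.0026 for the Tomm40 entry and -0.061 to 0.30 for the Apoc4 entry.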
